A study of Rattus norvegicus with 8 samples.

Results

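Genes of the striated muscle contractile machinery were measured in the colon of rats fed a reference diet or a diet with cocoa, cocoa fiber or inulin. The set holds 10 genes chosen by name, Casq1, Smpx, Myl2, Myh7, Acta1, Tnnc1, Tnnt1, Actn2, Ckm and Mb, out of 26913 genes or transcripts on the array, and all 10 have at least 1 probe (12 probes of 30367). Each array took the RNA of 2 rats, 1 labelled with the dye Cy5 and the other with Cy3, and 8 arrays on 1 slide covered 16 female Wistar rats, 6 weeks old at sampling by the labels. There were 4 rats on the reference diet (REF group), 4 on the cocoa diet (C10 group), 4 on the cocoa fiber diet (CF group) and 4 on the inulin diet (I group), with 2 rats of each diet in either dye. All groups shared strain, sex and age, and the reference was a standard rodent diet. RNA came from a whole piece of the middle colon, so that a smaller number of cells of one type and less RNA per cell cannot be told apart in any value below. The C10 rats were all on the arrays of one side of the slide (1 to 4) and the I rats on the other side (5 to 8), while the REF and CF groups were split between the sides.

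In skeletal and heart muscle, thick filaments of myosin slide along thin filaments of actin within the sarcomere, and calcium released from the sarcoplasmic reticulum starts the movement by binding to troponin on the thin filament. The muscle of the rat colon wall is smooth muscle, which has no sarcomeres and no troponin switch and whose own actins and myosin are products of other genes. The genes of the set are therefore known as markers of striated muscle, although some of them, such as the calsequestrin genes, are also known from smooth muscle.

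Detection was scored by rat, a probe being well above background where most of its spots carried that flag of the scanner software in the rat's dye. Of the 10 genes, 5 were above background in all 16 rats, namely Acta1, Tnnc1, Tnnt1, Ckm and Mb. Casq1 was above background in 15 rats, the exception being C10 rat 1. Smpx was detected in 11 rats, 3 of 4 in REF, 0 of 4 in C10, 4 of 4 in CF and 4 of 4 in I. Actn2 reached this level in 9 rats, 3 in REF, 1 in C10, 3 in CF and 2 in I, and Myl2 in 4 rats, 3 in REF, 0 in C10, 0 in CF and 1 in I. Myh7, the slow myosin heavy chain, was above background in 2 rats, REF rat 2 and I rat 3. Counted by rat, 6 to 10 of the genes were detected in REF rats, 5 to 7 in C10 rats, 7 to 8 in CF rats and 7 to 10 in I rats. The background differed between dyes, with 68.3 to 79.4 % of all probes above it in Cy5 and 61.4 to 68.9 % in Cy3. REF rat 2, with 10 genes detected, had the highest share (79.4 %), followed by I rat 3 (72.0 %), also with 10. REF rat 3, with 6 genes, had the lowest share (61.4 %). C10 rat 2 also had 6 genes but the highest share in Cy3 (68.9 %). The counts were not adjusted for these shares. A gene was tested where it was detected in at least 4 rats, which 9 of the 10 genes passed and Myh7 did not. Myl2 passed with exactly 4 rats, 3 of them in REF.

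**Figure D1:**
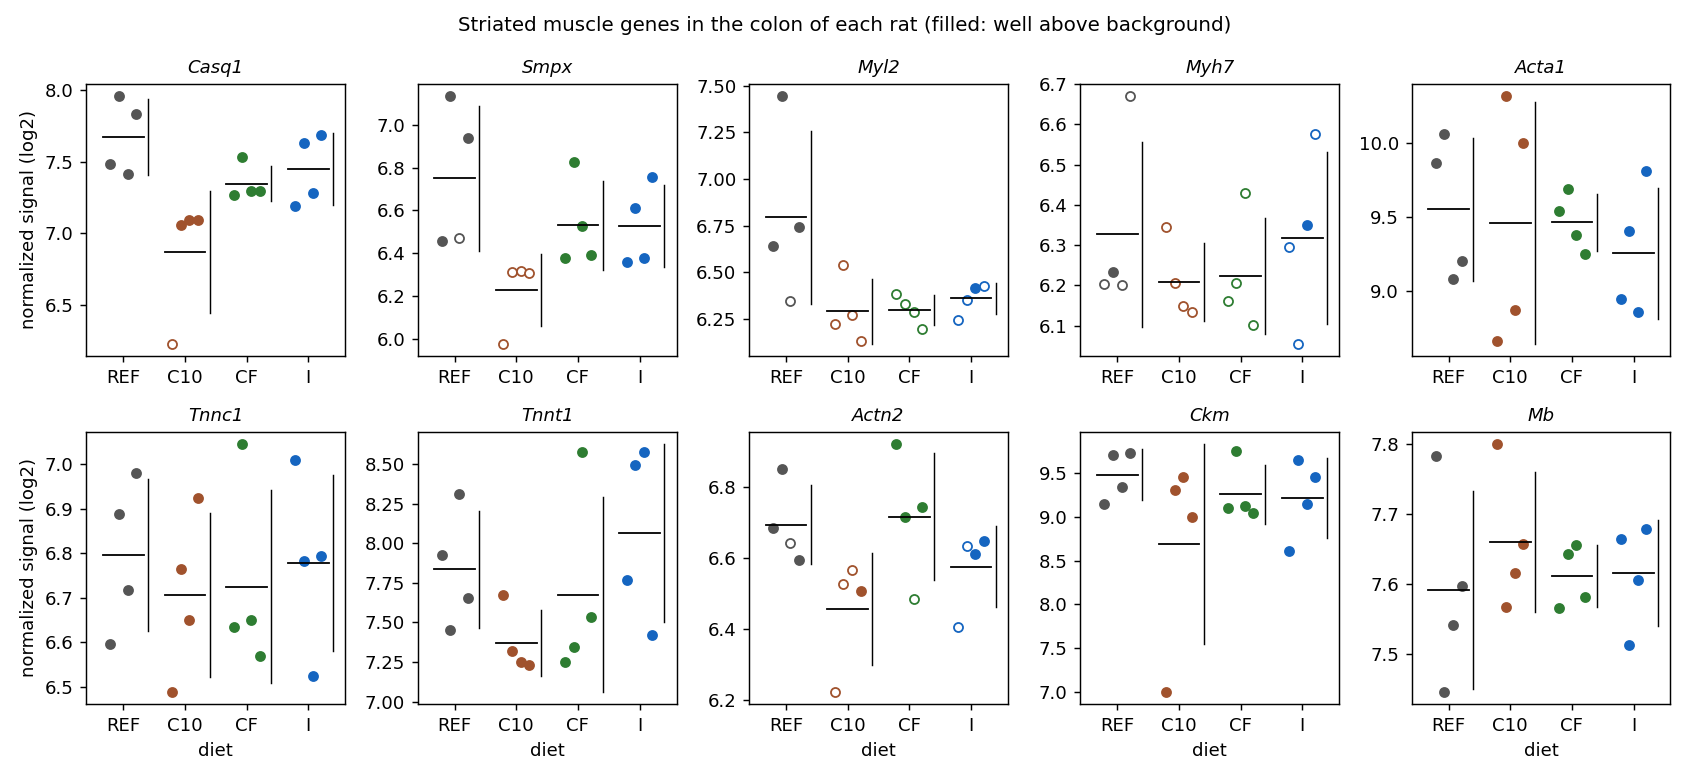
Normalized log2 signal of the 10 genes (vertical axis, own scale in each panel) in the 4 rats of each diet (horizontal axis). Filled points are rats in which the probe was well above background, horizontal lines are group means and vertical lines span 1 SD on either side. All 4 C10 rats lie below all 4 REF rats for Casq1, Smpx and Actn2, and C10 rat 1 is the lowest of the 16 rats for Casq1, Smpx, Acta1, Tnnc1, Actn2 and Ckm.

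The promoters of 4 of the genes are shown because Casq1 and Smpx separated the C10 and REF rats, and because Ckm and Acta1 were detected in every rat yet did not separate them. Each runs 5′ to 3′ from 250 bases before the start of the gene to 50 after it, as RefSeq places it in the rat build GRCr8. Casq1 lies at chr13:87212661-87212960 on the minus strand, Smpx at chrX:41107088-41107387 on the minus strand, Ckm at chr1:88189211-88189510 on the plus strand and Acta1 at chr19:68784145-68784444 on the minus strand. Capitals mark matches on either strand to the E-box (CANNTG), the CArG box, the MEF2 site and the TATA box (TATAAA), none of which overlap each other in these 4 windows.
Casq1: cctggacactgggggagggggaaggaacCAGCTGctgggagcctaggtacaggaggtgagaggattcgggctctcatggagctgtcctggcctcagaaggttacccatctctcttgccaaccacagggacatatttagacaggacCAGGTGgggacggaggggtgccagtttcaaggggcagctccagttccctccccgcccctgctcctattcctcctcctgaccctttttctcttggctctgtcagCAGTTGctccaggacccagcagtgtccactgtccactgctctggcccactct
Smpx: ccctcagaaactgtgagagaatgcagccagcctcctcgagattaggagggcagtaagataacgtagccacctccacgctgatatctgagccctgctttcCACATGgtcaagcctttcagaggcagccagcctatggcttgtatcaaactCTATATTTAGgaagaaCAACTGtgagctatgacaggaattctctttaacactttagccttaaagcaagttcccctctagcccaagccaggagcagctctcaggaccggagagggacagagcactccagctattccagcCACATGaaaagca
Ckm: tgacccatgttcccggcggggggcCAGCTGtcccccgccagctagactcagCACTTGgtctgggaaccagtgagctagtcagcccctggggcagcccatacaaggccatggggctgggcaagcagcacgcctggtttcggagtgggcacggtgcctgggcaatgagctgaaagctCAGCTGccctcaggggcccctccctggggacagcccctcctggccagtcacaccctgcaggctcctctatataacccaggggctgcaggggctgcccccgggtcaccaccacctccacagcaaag
Acta1: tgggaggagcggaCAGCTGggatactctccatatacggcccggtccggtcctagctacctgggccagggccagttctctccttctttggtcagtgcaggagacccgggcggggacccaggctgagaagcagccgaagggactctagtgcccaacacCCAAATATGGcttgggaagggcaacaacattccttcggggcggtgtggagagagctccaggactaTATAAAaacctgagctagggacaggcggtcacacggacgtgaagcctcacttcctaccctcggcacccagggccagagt

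These are the letters that muscle transcription factors are known to bind: MyoD-type factors the E-box, serum response factor the CArG box and MEF2 proteins the MEF2 site. An E-box was present in all 8 promoters of the set that the RefSeq table holds, and in 72.1 % of all 33469 promoters of the same length. The CArG box was found only in Acta1 among the 8, where it spans bases -94 to -85 before the start, against 1.64 % of all promoters. Smpx alone of the 8 had a MEF2 site, at -101 to -92, against 3.29 % of all promoters. Acta1, Tnnt1 and Mb held a TATA box, which occurs in 14.2 % of all promoters, and Casq1, Smpx and Ckm did not hold these letters in the window. Myl2 and Tnnc1 were not matched to a promoter.

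Casq1 encodes the main calsequestrin of fast muscle, the protein that binds calcium in the lumen of the sarcoplasmic reticulum. Its normalized log2 signal was 7.49, 7.96, 7.41 and 7.83 in REF rats 1 to 4 and 6.23, 7.06, 7.09 and 7.10 in C10 rats 1 to 4. In CF rats it was 7.27, 7.53, 7.30 and 7.29, and in I rats 7.19, 7.63, 7.28 and 7.69. Every C10 rat was below every rat of the other diets, whereas REF overlapped with CF and with I. The fitted difference between C10 and REF was -0.86 (SE 0.15, 95 % interval -1.18 to -0.55), a 1.82-fold lower signal with a limma adjusted p of 0.0153, and the exact permutation test of 4 rats against 4 (two-sided) gave p = 0.0286, the smallest it can give. Without C10 rat 1, the lowest C10 rat, the difference was -0.67 (limma adjusted p 0.0311), and without REF rat 2, the highest REF rat, it was -0.74 and no longer passed (limma adjusted p 0.116). Within arrays 1 to 4 alone, the 4 C10 rats differed from the 2 REF rats there by a mean of -0.85. These rats include both C10 rat 1 and REF rat 2. A dimmer Casq1 probe, above background in 10 rats, gave group means of 6.54 ± 0.27 in REF and 6.25 ± 0.22 in C10 (SD, n = 4), overlapping between the diets, with p = 0.2 in the exact permutation test.

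Against REF, Casq1 differed by -0.40 in CF (SE 0.16, limma adjusted p 0.767) and by -0.24 in I (SE 0.15, limma adjusted p 0.931). The differences of C10 from CF and from I were -0.46 (limma adjusted p 0.191) and -0.62 (limma adjusted p 0.115), so that these did not pass although the rats did not overlap. C10 and I rats shared no array and no side of the slide.

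Smpx encodes a small muscle protein that is known from the membrane-linked costameres next to the Z-disc. Signals were 6.46, 7.13, 6.47 and 6.94 in REF rats, 5.98, 6.31, 6.32 and 6.31 in C10 rats, 6.38, 6.82, 6.53 and 6.39 in CF rats and 6.36, 6.61, 6.38 and 6.75 in I rats. All C10 rats were below all rats of the other diets, and none of the 4 was above background. C10 and REF differed by -0.55 (SE 0.13, limma adjusted p 0.0568). As no C10 rat was above background, folds were taken from group means. By this reckoning Smpx was 1.21-fold brighter in CF and 1.20-fold brighter in I than in C10. The same figure for REF was 1.40-fold, but the REF mean includes REF rat 3, which was not above background. These figures set the brighter group's mean against a level for each C10 rat. That level is the higher of the rat's own value and the lowest signal well above background in that rat. The lowest signal is taken over all probes and is not a limit for the Smpx probe. That probe read 6.47 in REF rat 3 without being above background, so none of these folds is a minimum. The spread between rats is not part of these figures. Differences from C10 to CF (-0.32, limma adjusted p 0.305) and to I (-0.35, limma adjusted p 0.337) did not pass. CF and I differed from REF by -0.24 and -0.21, with limma adjusted p of 0.837 and 0.933.

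Actn2, the alpha-actinin that cross-links actin filaments at the Z-disc, had signals of 6.69, 6.85, 6.64 and 6.60 in REF rats and 6.22, 6.53, 6.57 and 6.51 in C10 rats. Its C10 and REF rats did not overlap, by a margin that was narrow between REF rat 4 and C10 rat 3. The difference was -0.28 (SE 0.08, limma adjusted p 0.119). CF rats ranged from 6.49 to 6.92 and I rats from 6.41 to 6.65, and both overlapped with C10. Between C10 and CF the difference was -0.29 (limma adjusted p 0.149), and between C10 and I -0.19 (limma adjusted p 0.417).

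Of the thick filament genes, Myl2 encodes the regulatory light chain of slow and ventricular myosin. It was 6.64, 7.44, 6.35 and 6.74 in REF rats, 6.23, 6.54, 6.27 and 6.13 in C10 rats, 6.38, 6.33, 6.29 and 6.19 in CF rats and 6.25, 6.35, 6.42 and 6.43 in I rats. REF rat 2 was the highest of the 16 rats, and REF rat 3 lay within the range of the other diets. All 3 diets had lower fitted values than REF, with differences of -0.53 in C10 (SE 0.14, limma adjusted p 0.0826), -0.43 in CF (SE 0.15, limma adjusted p 0.746) and -0.34 in I (SE 0.14, limma adjusted p 0.88). No rat was above background in C10 or CF. Reckoned as for Smpx, the REF mean was 1.40-fold above C10 and 1.41-fold above CF. The REF mean includes REF rat 3, which was not above background, so these folds are not minimums. The fit, with its dye term, gave 1.35-fold between REF and CF. Without REF rat 2, the difference between C10 and REF was -0.30 (limma adjusted p 0.333). Myh7, the heavy chain that pairs with this light chain, ranged from 6.05 to 6.67 over all rats and was not tested.

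Thin filament genes showed other patterns. Acta1 encodes the skeletal muscle actin, and its signal was 9.87, 10.06, 9.08 and 9.20 in REF rats, 8.66, 10.32, 8.87 and 9.996 in C10 rats, 9.54, 9.69, 9.38 and 9.25 in CF rats and 8.95, 9.41, 8.86 and 9.81 in I rats. The C10 group held both the highest and the lowest rat of the 16. Its difference from REF was -0.19 (SE 0.29, limma adjusted p 0.797, 95 % interval -0.82 to 0.44), so that the data allow a change in either direction. The sign turned without C10 rat 1, without C10 rat 3 or without REF rat 1. Tnnc1, the calcium-binding troponin C of slow and heart muscle, ranged from 6.49 to 7.05 over the 16 rats and differed between C10 and REF by -0.14 (SE 0.11, limma adjusted p 0.537).

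Tnnt1 encodes the troponin T of slow skeletal fibres, which ties troponin to tropomyosin. Signals were 7.93, 7.45, 8.31 and 7.65 in REF rats, 7.67, 7.32, 7.25 and 7.23 in C10 rats, 7.25, 7.34, 8.58 and 7.53 in CF rats and 7.77, 8.49, 8.57 and 7.42 in I rats. The 3 highest rats were CF rat 3, I rat 3 and I rat 2, C10 rat 1 was the highest of its diet, and all diets overlapped. C10 minus REF was -0.34 (SE 0.26, limma adjusted p 0.542). A second, dimmer Tnnt1 probe followed the first over the 16 rats (Pearson r 0.94). On this probe C10 and REF rats did not overlap, at 6.48 ± 0.11 in C10 and 6.85 ± 0.20 in REF (SD, n = 4, exact permutation p = 0.0286). C10 still overlapped with CF.

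Among the genes of energy supply, Ckm encodes the muscle creatine kinase, which restores ATP from phosphocreatine. Its signal was 9.14, 9.71, 9.34 and 9.73 in REF rats, 7.0, 9.31, 9.46 and 8.99 in C10 rats, 9.11, 9.75, 9.12 and 9.04 in CF rats and 8.61, 9.65, 9.15 and 9.45 in I rats. C10 rat 1 lay far below the other 15, while the remaining C10 rats overlapped with every diet. The fitted difference between C10 and REF was -0.91 (SE 0.31, limma adjusted p 0.158), and it was -0.39 (limma adjusted p 0.397) without C10 rat 1. CF and I differed from REF by -0.41 and -0.33, with limma adjusted p of 0.902 and 0.948. Mb, which encodes the oxygen-storing myoglobin, moved least, with all 16 rats between 7.45 and 7.80 and a C10 minus REF difference of 0.08 (SE 0.06, 95 % interval -0.06 to 0.21, limma adjusted p 0.576). It was the only one of the 9 tested genes with a higher fitted value in C10 than in REF.

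**Figure D2:**
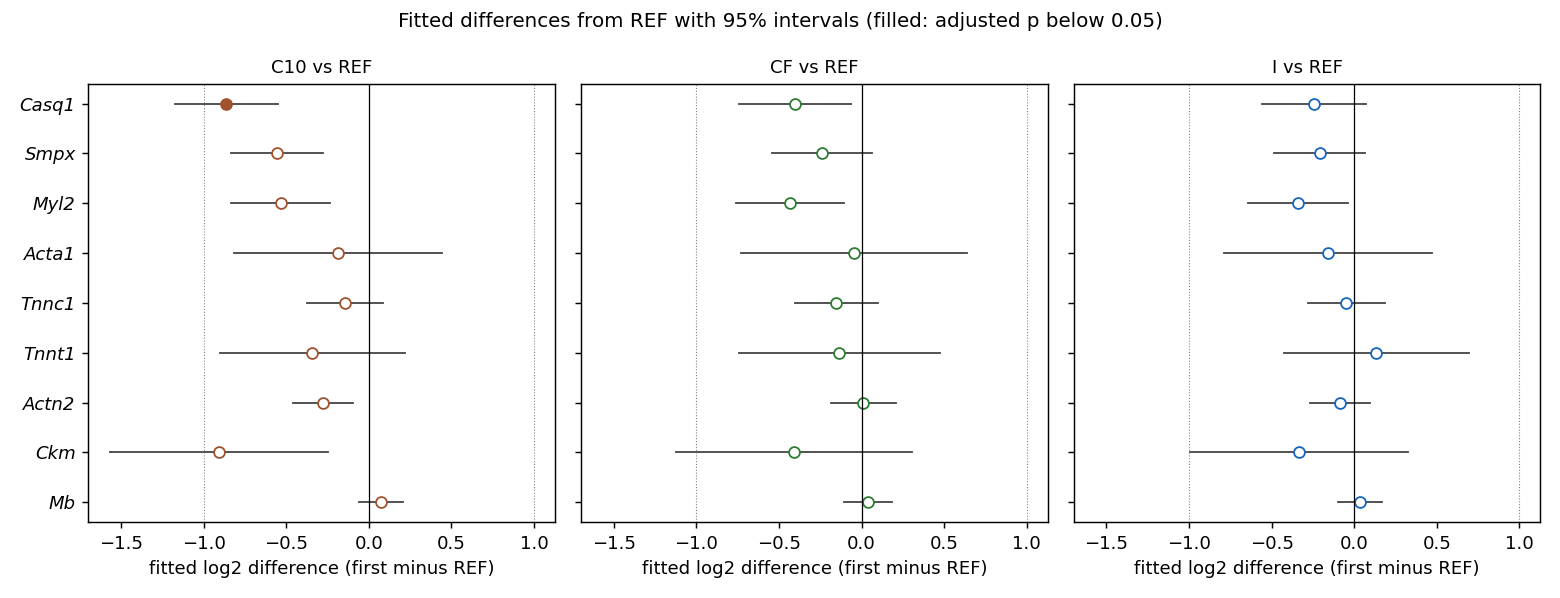
Fitted log2 difference of C10, CF and I from REF (horizontal axes) for the 9 tested genes (vertical axis), with unadjusted 95 % intervals. Dotted lines mark a 2-fold difference and a filled point marks an adjusted p below 0.05, which only Casq1 in C10 reached (-0.86).

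Over the 9 tested genes, 8 had a lower fitted value in C10 than in REF, with a median difference of -0.34 against 0.01 over all 19392 genes tested. None of the 9 met the call rule, an adjusted p below 0.05 together with at least 2-fold, against 0.196 % of all genes. At any fold, 1 gene (Casq1) passed in C10, where 0.944 % of all genes passed in either direction and 0.603 % passed with a lower signal. An unadjusted p below 0.05 was reached by 5, Casq1, Smpx, Myl2, Actn2 and Ckm, all lower. Over all genes, 8.43 % were lower at this p and 17.3 % reached it in either direction. Myl2 passed the filter on 4 rats, 3 of them in REF, so the filter itself favoured a lower value in the other diets. Its place in this count, and in those of CF and I below, is therefore not evidence of a lower signal. All 4 C10 rats lay below all 4 REF rats for 3 of the 9, compared with 2.04 % of all genes. Casq1, Smpx and Myl2 are among the genes that the study itself listed as lowered by cocoa on these same samples, so their direction is not independent evidence. The study listed them at 2-fold or more by rank product, whereas none of them reached 2-fold in the main fit here. The other diets share the REF rats with this comparison. In CF against REF and in I against REF, limma called 0 of the 9 at 2-fold or at any fold, as it did of all genes (0 %), and 2 genes (Casq1 and Myl2) and 1 gene (Myl2) had an unadjusted p below 0.05, beside 6.31 % and 5.6 % of all genes. C10 against CF gave 0 calls at 2-fold (0.103 % of all genes) or at any fold (0.433 %), 3 genes at an unadjusted p below 0.05 (13.5 %), and 2 genes, Casq1 and Smpx, with all C10 rats lower (1.86 %). In C10 against I, 0 were called at 2-fold (0.17 %) or at any fold (0.567 %), 2 had an unadjusted p below 0.05 (12.3 %), and the same 2 genes had all C10 rats lower (2.37 %). CF against I gave 0 calls by limma and 0 genes at an unadjusted p below 0.05 (2.79 % of all genes).

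The number of these genes called changed with the background correction. Signals near the background are compressed by the offset of 50 that was added before taking logarithms. With an offset of 0, the C10 minus REF difference was -1.43 for Casq1 and -1.39 for Smpx, and both were called at 2-fold, with limma adjusted p of 0.0173 and 0.0264. With the processed signals of the scanner software, Casq1 (-1.91), Smpx (-2.50) and Myl2 (-2.63) were called. Fitting the ratio of both rats on an array left none at any fold, with -0.95 for Casq1 (limma adjusted p 0.151). The study's methods used rank product, which was written anew here, and on simulated data this version made more false calls than limma. It passed Casq1 alone (estimated proportion of false positives 0.0375) and called none at 2-fold.

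**Figure D3:**
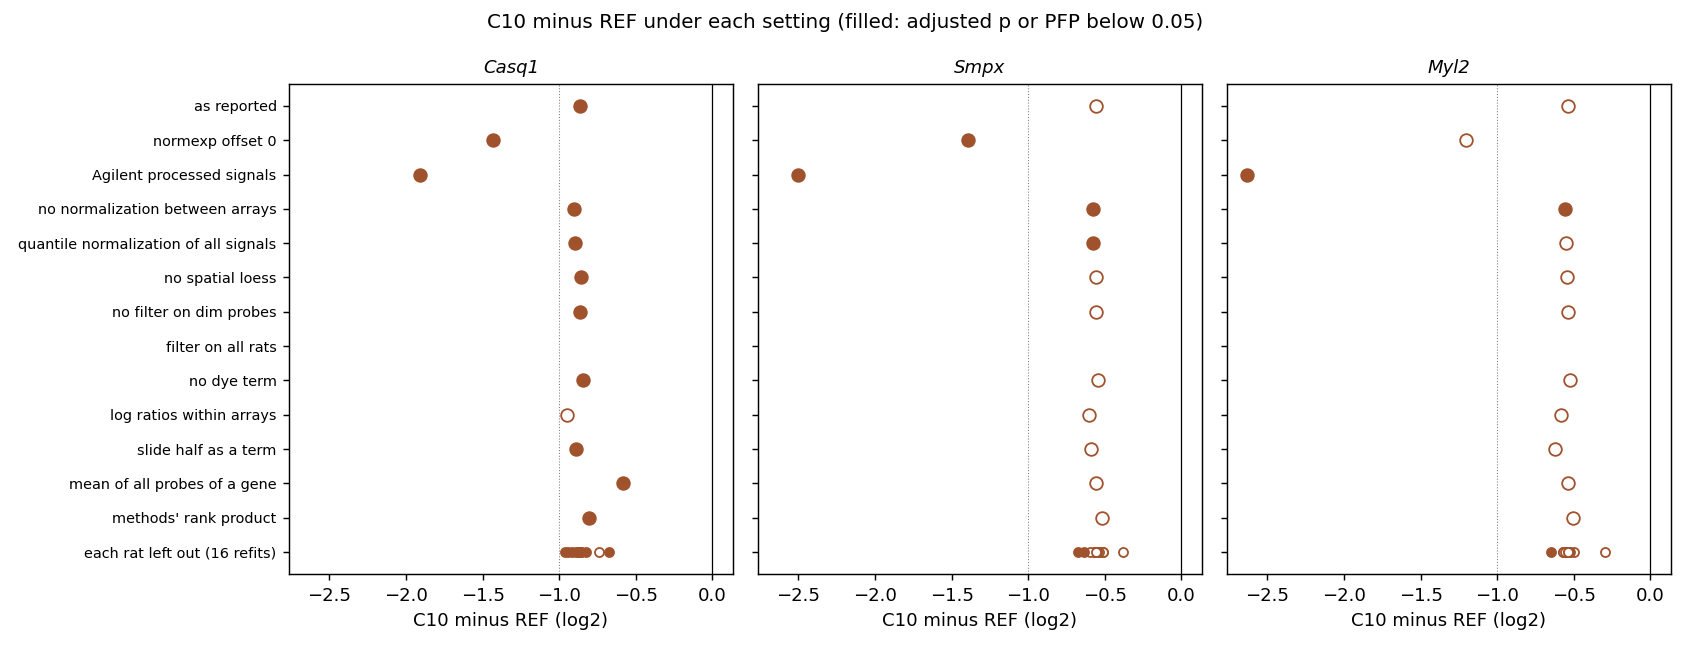
C10 minus REF log2 difference of Casq1, Smpx and Myl2 (horizontal axes) under each setting (vertical axis), with the 16 refits that leave out 1 rat in the last line. Filled points have an adjusted p, or for rank product an estimated proportion of false positives (PFP), below 0.05. The dotted line marks a 2-fold lower signal, and no point is drawn where a gene was not tested. Every point lies below 0, from -0.58 to -1.91 for Casq1.

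C10 rat 1 also stood apart in smooth muscle, the tissue of the colon wall. The 11 tested genes of a smooth muscle list, led by Myh11, Acta2 and Actg2, were above background in every rat. Their summed signal was 68522 in C10 rat 1 and 217677 to 546233 in the other 15 rats, 3.18-fold below the lowest of them, and C10 rat 1 was the lowest of 16 for 11 of 11 genes. In the C10 group the remaining rats held 285248 to 311191, beside 262083 to 546233 in REF, 277836 to 324386 in CF and 217677 to 318625 in I. None of the 11 passed in C10 against REF, with 7 at an unadjusted p below 0.05, all lower (8.43 % of all genes), and a median difference of -0.70, which became -0.14 without C10 rat 1. Among the 9 striated muscle genes, this rat was the lowest of 16 for 6 and the highest for Mb. Without it, 1 of the 9 still passed, Casq1, and the part of the smooth muscle signal in the other differences was not tested.

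**Figure D4:**
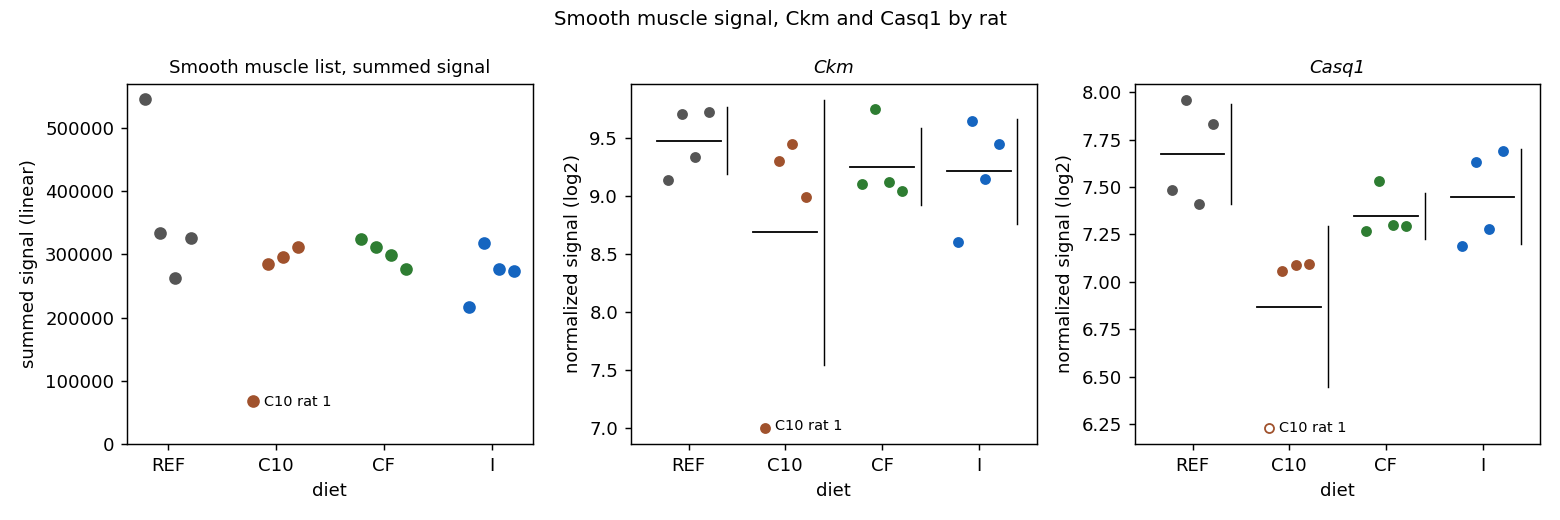
Summed linear signal of 11 smooth muscle genes (left, axis from 0) and log2 signals of Ckm and Casq1 (middle and right) by rat and diet, with group means (horizontal lines) and 1 SD (vertical lines) for both genes. C10 rat 1, at 68522 for the sum, 7.0 for Ckm and 6.23 for Casq1, is the lowest of 16 rats in all 3 panels, while the other C10 rats are within the range of REF for the sum and below all REF rats for Casq1.

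Several defining genes of striated fibres were at or below background. Of the fast skeletal fibre list, Myh1 was above background in 0 rats, Myh4 in 1 and Myh2 in 7, while Tnnt3, Tnni2, Tnnc2 and Actn3 were above it in all 16. Its summed signal over 6 tested genes was 1997 to 3687 in REF and 1250 to 3465 in C10, and 0 of the 6 passed. Of the heart list, Nppb and Myl7 were above background in 0 rats, Nppa in 1, Myh6 in 6 and Tnni3 in 6, while Tnnt2, Myl4 and Actc1 were above it in all 16, and its summed signal over 5 tested genes was 1434 to 1986 in REF and 1193 to 2587 in C10. The myogenic regulators Myod1 and Myf6 were above background in 0 rats and Pax7 in 1, whereas Myf5 was above it in 16 and Myog in 12. Interstitial cells of Cajal and enteric neurons (6 genes, among them Kit, Ano1 and Elavl4) gave sums of 10746 to 11602 in REF and 7440 to 12313 in C10. Adipocyte genes (Adipoq, Fabp4 and Cidec) gave 961 to 3341 in REF and 668 to 1221 in C10, with a difference of -1.71 for Adipoq (limma adjusted p 0.19) and -1.06 for Fabp4 (limma adjusted p 0.0789), both also listed by the study. Colon epithelium genes, led by Cdx2, Krt20 and Slc26a3, were all above background in every rat and summed to 59024 to 136025 in REF and 47268 to 96124 in C10. By limma, 0 tested genes of these 6 lists passed in C10 against REF, while an unadjusted p below 0.05 was reached by 2 fast fibre genes, 2 heart genes (Tnnt2 lower and Actc1 higher), 2 myogenic regulators (both higher), 1 neuronal gene (Uchl1), 2 adipocyte genes and 0 epithelium genes, beside 17.3 % of all genes. The part of these cell types in the differences was not tested.

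Beyond the 10 genes, 116 further genes were read from lists of striated muscle genes by role. Of these, 93 were matched to a probe by symbol and 62 were tested. Some were far brighter than Acta1 (REF mean 9.55), such as Fhl1 (13.88), Pln (12.27) and Eno3 (11.82). Which cells of the colon piece gave the signal of the listed genes was not tested. Genes that were not matched may still be on the array. Mybpc2, which the study listed as lowered by cocoa, was among them. In C10 against REF, 7 of the 62 passed at an adjusted p below 0.05, all lower, and 0 were higher, where 0.944 % of all genes passed in either direction and 0.603 % passed with a lower signal. The median difference of the 62 was -0.18, against 0.01 over all genes. Of the 62, 10 are genes that the study listed on these samples, and 4 of the 7 are among these 10. The lists were chosen with earlier results known, so the share over all genes is not a fair yardstick for this count. Without C10 rat 1, an alternative chosen after seeing the data, 5 passed, among them Apobec2, Pygm and Srpk3 of these 7 and also Cox6a2, while Hrc, Ckmt2 and Rrad did not (limma adjusted p 0.0554, 0.0876 and 0.0967). The differences of these 3 were then -0.59, -0.26 and -0.76. At 2-fold or more, limma called 2, Srpk3 and Apobec2, against 0.196 % of all genes, and it called none of the 62 in any other comparison.

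The list of myogenic regulators and end plate genes held the 2 calls and had 9 tested genes, 3 of them past the adjusted p. Srpk3, a muscle-specific protein kinase, was 8.95 ± 0.82 in C10 and 10.34 ± 0.28 in REF (SD, n = 4), with a difference of -1.47 (SE 0.27, limma adjusted p 0.0216). Apobec2, a muscle member of the cytidine deaminase family, was 8.17 ± 0.51 and 9.50 ± 0.27, with a difference of -1.35 (SE 0.21, limma adjusted p 0.0113), and Rrad, a small GTPase that restrains calcium channels, differed by -0.90 (limma adjusted p 0.0417). All 3 were listed by the study. The median of this list was 0.02, with 4 genes lower and 5 higher in fitted value. The 3 that passed are neither regulators nor end plate genes. The regulators Myog and Myf5 differed by 0.27 and 0.17 (limma adjusted p 0.136 and 0.158). Of the end plate genes, Chrna1, Chrnb1 and Dok7 differed by 0.06, 0.02 and 0.09 and Chrne by -0.13, and none passed.

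Of 13 tested genes of the calcium store and excitation, 11 had lower fitted values in C10 and 1 passed. That gene was Hrc, which encodes a histidine-rich calcium-binding protein of the sarcoplasmic reticulum, with a difference of -0.56 (SE 0.11, limma adjusted p 0.0385), and it was not in the study's list. Pln and Sln, small proteins that inhibit the calcium pump, differed by -1.98 (SE 0.49, limma adjusted p 0.0713) and -1.38 (SE 0.34, limma adjusted p 0.0713). Without C10 rat 1, Pln differed by -1.26 (limma adjusted p 0.146) and Sln by -0.94 (limma adjusted p 0.164). Casq2, the heart calsequestrin, differed by -1.36 (SE 0.30, limma adjusted p 0.0507), and by -0.95 without C10 rat 1 (limma adjusted p 0.117). These last 3 were on the study's list, as were Myom2 and Car3 among the genes that follow.

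Energy supply had 11 tested genes and 2 that passed, Pygm, the muscle glycogen phosphorylase (-0.63, SE 0.11, limma adjusted p 0.0151), and Ckmt2, the mitochondrial creatine kinase of sarcomeric muscle (-0.28, SE 0.06, limma adjusted p 0.0436). Ckmt2 was above background in 2 REF, 0 C10, 1 CF and 2 I rats. Reckoned as for Smpx, the REF mean was 1.16-fold and the I mean 1.20-fold above C10. Both means include rats that were not above background, so these folds are not minimums. Cox6a2, a muscle subunit of cytochrome oxidase, differed by -0.98 (limma adjusted p 0.109), Eno3 by 0.85 (limma adjusted p 0.574) and Car3 by -0.70 (limma adjusted p 0.385). Without C10 rat 1, Cox6a2 passed at -1.44 (limma adjusted p 0.0191), and Eno3 differed by 1.44 (limma adjusted p 0.395). Pygm also passed in C10 against CF (-0.57, limma adjusted p 0.0332) and against I (-0.60, limma adjusted p 0.0368), and Ckmt2 in C10 against I (-0.32, limma adjusted p 0.0451), all under 2-fold.

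Among the 7 tested genes of the Z-disc and membrane linkage list, Ankrd1 and Fhl1 differed by -0.56 and -0.46 and did not pass, and Fhl1 was at 0.05 without C10 rat 1. Thick filament and M-band genes (11 tested, 10 with lower fitted values) gave 0 passes by limma and 3 at an unadjusted p below 0.05, the largest differences being those of Myh8 (-0.91, limma adjusted p 0.208), Myom2 (-0.66, 0.0874) and Myom1 (-0.61, 0.0842). When C10 rat 1 was left out, these were -0.50, -0.69 and -0.37. Thin filament genes (11 tested) gave 0 passes by limma and 5 at an unadjusted p below 0.05, 4 lower and 1 higher. The largest differences in this list were those of Tnnc2 (-1.08, limma adjusted p 0.347), Tnnt2 (-0.84, 0.226) and Actc1, the heart actin (0.50, 0.0937). Tnnt2 was at -0.22 and Tnnc2 at 0.0017 when C10 rat 1 was left out.

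Across the 16 rats the genes did not form 1 block. Of the 36 pairs of tested genes, 22 had a Pearson r above 0, from -0.64 to 0.91, as a description over 16 rats that share arrays in pairs and 1 normalization. The closest pair was Casq1 and Smpx (r 0.91, and 0.94 without C10 rat 1). Mb ran against the mean of the standardized signals of the 9 genes (r -0.48) and Tnnt1 had r 0.01 with it, while Casq1 (0.95), Smpx (0.92) and Ckm (0.84) were closest to it. The mean includes each of these genes, which raises their r, so that they cannot be set beside genes outside the set. Outside the set, the 8 genes most like this mean were Itgb1bp2 (r 0.94), Ptgis (0.93), Rgs4 (0.92), Mustn1 (0.91), Rgs1 (0.90), Nucb2 (0.90), Ism1 (0.90) and Rrad (0.89). After removing each diet's mean they still had r between 0.82 and 0.94, and without C10 rat 1 between 0.80 and 0.91.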

How the data were processed

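Gene expression was measured in the colon of 16 rats, 4 per diet, on 8 arrays of 62976 spots. The authors deposited the output of Agilent Feature Extraction 10.7.3.1 (per the submitters' processing notes), which gives median intensities of the spots and their local backgrounds in each dye, not normalized, the software's processed intensity, and flags for outliers and for signals well above background. A normalized matrix, whose 8 columns match no label, was not used here.

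The 10 genes and the lists were chosen with earlier results of these data known. Processing followed the steps the study's methods name, with limma 3.58.1 and statmod 1.5.0 in R 4.3.3: normexp on the median intensities (offset 50), spatial loess (span 0.4), loess (span 0.3) and Aquantile. The offset and spans were chosen here. Log2 signals of each dye were averaged over the spots of a probe, and probes were matched to current symbols through their accession (17935 of 19109 mRNA accessions). Of 30367 probes, 21950 were above background in at least 4 rats, and the brightest probe stood for each of 19392 genes. limma was fitted with diet and dye as terms and the array as a random block (correlation 0.414), with Benjamini-Hochberg adjustment over all genes. Calls needed an adjusted p below 0.05 and at least 2-fold. Exact permutation tests were two-sided. The number of arrays limits the precision. The methods describe dye swaps, but the labels give each rat 1 array and 1 dye. The pipeline was tested on simulated data.

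Named were all 10 genes, in each role list the 3 genes with the largest C10 minus REF difference and any called gene, the 8 genes most like the set, and the first genes of each cell type list. Genes past the adjusted p below 2-fold (Hrc, Pygm, Ckmt2) and Tnnt3, Tnni2, Actn3 and other list genes given by detection alone were named after their values were seen. So were Myog, Myf5, Chrna1, Chrnb1, Chrne and Dok7. Mybpc2 was named because the study reported it. The values of 1 gene of the role lists are not reported here, and the counts include it. Alternatives were an offset of 0, the processed intensities, other normalizations, filters and models, rank product (100 permutations) and leaving out each rat.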

Additional observations from a re-analysis of the deposited data

Results flagged for a closer look

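Of the 40 groups of 4 rats (10 genes in 4 diets), 7 held a rat whose gap to the nearest other rat took up more of the group's range than Dixon's test allows at 95 %, where chance gives about 1 in 20. C10 rat 1 accounted for 3 of them, at 6.23 for Casq1 (next C10 rat 7.06), 5.98 for Smpx (next 6.31) and 6.22 for Actn2 (next 6.51). All 3 of these values were not well above background, and for Smpx neither was any other C10 rat. This is also the rat with the low smooth muscle signal. CF rat 2 was high for Casq1 (7.53) and for Ckm (9.75). REF rat 4 was high for Myh7 (6.67), where its probe was not above background. I rat 1 was low for Actn2 (6.41), also not above background.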

How the results depend on the processing

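Over 28 alternatives (16 of them leaving out 1 rat), the 9 genes gave 0 calls at 2-fold in every comparison except C10 against REF, where an offset of 0 gave 2 and the processed signals gave 3. At any fold, the 1 gene that passed in C10 against REF became 2 with an offset of 0 or quantile normalization, 3 with processed signals or without normalization between arrays, and 0 with the log ratios within arrays or when every rat had to be above background, where Casq1 was not tested. Leaving out 1 rat gave 0 (without REF rat 2) to 3 (without REF rat 3). The Casq1 difference kept its sign throughout. Smpx passed at an adjusted p of 0.0487 without REF rat 1 and 0.0266 without REF rat 3. The Acta1 difference between C10 and REF ranged from -0.46 (without C10 rat 2) to 0.12 (without C10 rat 1), and was also above 0 at 0.04 without REF rat 1 and 0.02 without C10 rat 3. Of the 31 single differences not given one by one in the text, 15 changed sign in 72 of 860 refits, all with a starting adjusted p of at least 0.783, and none passed. Without C10 rat 1, 5 in place of 7 of the other striated muscle genes passed. The cause of these changes was not tested. The lowest signal of any probe that was well above background was 5.83 to 6.40 by rat on the log2 scale. A single probe could read higher without being above background, such as 6.67 for Myh7 in REF rat 4. Differences between signals that were not above background could not be measured. The labels give no replicate numbers shared between diets, so that rats could be paired only by array. That pairing is the fit of log ratios within arrays, in which Casq1, the 1 gene that had passed, was at -0.95 (adjusted p 0.151).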
